A study of Mus musculus with 71 samples.

Results

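The effect of RSG (rosiglitazone) was compared between adipocytes of the lines 3T3-L1 and C3H/10T1/2 after 24 and 48 hrs of treatment, on the 24 arrays of these times out of 71 arrays in the series. The value reported for a probe set is the difference between the lines, that is, the log2 signal with RSG minus that with DMSO in 3T3-L1 adipocytes, minus the same in C3H/10T1/2 adipocytes. It is positive where RSG raised a transcript more, or lowered it less, in 3T3-L1 adipocytes. Each of the 8 groups of line, treatment and time held 3 arrays, 12 arrays for each line. Group means are arithmetic means ± SD over 3 arrays (n = 3), and SE is the standard error of a difference on the log2 scale. Every SE and adjusted p is from limma, with the spread of a probe set taken from all 71 arrays. Of 22626 probe sets, 17773 had a mean signal at or above the presence level of the study's methods, a signal of about 20, in at least 1 of the 8 groups and were tested.

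Both lines are fibroblast-like mouse embryo cells that become fat cells in culture. The 3T3-L1 cells had been differentiated with 100 nM RSG for 2 days, together with insulin, isobutylmethylxanthine and dexamethasone, and the C3H/10T1/2 cells with 10 µM RSG and insulin for 6 days, so that the DMSO groups too had met RSG earlier. After their 2 days with RSG, the 3T3-L1 cells had 2 days with insulin and 3 days in complete medium alone, both without RSG. The methods name no such interval for the C3H/10T1/2 cells. All cells were afterwards kept for 24 hrs in serum-free medium with albumin and without RSG. They received 1 µM RSG or its vehicle DMSO in that medium. The line and its way of differentiation, with the time since the earlier RSG, cannot be told apart. A sample pooled 2 wells, and the methods state that the 3 replicates came from 3 batches of cells. In such cultures fewer responding cells and a smaller change per cell cannot be told apart.

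RSG is a ligand of PPARγ, the nuclear receptor that drives adipocyte formation and switches on genes of fatty acid uptake, triglyceride storage and fatty acid oxidation. Adipocytes store fatty acids as triglycerides, for which they need glycerol 3-phosphate, and they draw acetyl-CoA for fatty acid and cholesterol synthesis from glucose. Cholesterol synthesis is controlled by SREBP2, and fatty acid synthesis by SREBP1c, factors that bind sterol regulatory elements in promoters.

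Both lines carried adipocyte transcripts, with 9 of 10 measured markers at the presence level in each late group. The medians of Adipoq (adiponectin) over the 12 arrays were 8058 in 3T3-L1 adipocytes, against 6623 in those of C3H/10T1/2, and those of Fabp4, the adipocyte fatty acid binding protein, 6331 and 5805. Of the 10 markers only Cebpa had the higher median in C3H/10T1/2 adipocytes (2202 against 1578). Lep (leptin) was under the presence level on every array of both lines, and Ucp1, the uncoupling protein of brown fat, was so too. The summed signal of 7 brown adipocyte markers with DMSO at 24 hrs was 428 to 515 in 3T3-L1 adipocytes, against 2049 to 2666 in those of C3H/10T1/2. Among them Cidea, Cox7a1 and Cox8b had the higher median in C3H/10T1/2 adipocytes, and Dio2, Elovl3 and Ppargc1a in those of 3T3-L1. Dlk1, a preadipocyte marker, lay between 1545 and 4372 in 3T3-L1 adipocytes, and between 15.9 and 33.2 in those of C3H/10T1/2. Of the fibroblast and preadipocyte markers, Fn1, Col3a1, S100a4 and Col1a1 had the higher median in C3H/10T1/2 adipocytes (Fn1 2279 against 1386). The others, such as Dlk1, had it in 3T3-L1 adipocytes. The summed signal of 11 fibroblast and preadipocyte markers at 48 hrs was 21658 to 22645 with DMSO and 14616 to 16735 with RSG in 3T3-L1 adipocytes, against 12944 to 13456 and 9026 to 10210 in C3H/10T1/2 adipocytes. These markers were thus lower with RSG in both lines, and their part in the results below was not tested. Of all probe sets 69.8% to 73.3% were at the presence level on a 3T3-L1 array and 62.8% to 66.6% on a C3H/10T1/2 array.

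At 24 hrs the effect of RSG differed between the lines for 49 of 17773 probe sets (0.276%) at an adjusted p under 0.05 from limma, with 27 higher (0.152%) and 22 lower (0.124%) in 3T3-L1 adipocytes. At 48 hrs it differed for 155 (0.872%), with 119 higher (0.67%) and 36 lower (0.203%), so that 76.8% of the calls were higher, or 62.3% with signals floored at the presence level. No such excess was seen at an unadjusted p under 0.05, where 808 were higher and 831 lower, nor by the methods' unadjusted test, with 589 and 601. The higher probe sets at 48 hrs stand for 86 named genes and the lower ones for 30. RSG raised 88 of the 119 probe sets in 3T3-L1 adipocytes alone and 26 in both lines, and it lowered the remaining 5 in C3H/10T1/2 adipocytes alone. Of the 36 lower ones, 20 fell in 3T3-L1 adipocytes alone and 9 in both lines, 5 rose in C3H/10T1/2 adipocytes alone, 1 moved in opposite directions and 1 passed the test in neither line. Of the calls, 25 were made at both times, all in the same direction, which is 51.0% of those at 24 hrs and 16.1% of those at 48 hrs. Because no arrays are shared between the times, the signs can be compared as well, and 146 of the 155 differences called at 48 hrs had the same sign at 24 hrs, against 57.6% of all tested probe sets. No probe set changed its difference between 24 and 48 hrs by limma (0%), with 786 at an unadjusted p under 0.05. A call in 1 line alone seldom came with a called difference. RSG changed 2185 probe sets in 3T3-L1 adipocytes alone at 48 hrs, and for 108 of them the difference passed the test. For C3H/10T1/2 adipocytes alone the numbers were 228 and 10. In 3T3-L1 adipocytes RSG itself raised 5.55% and lowered 7.87% of the tested probe sets at 24 hrs, while at 48 hrs the shares were 6.97% and 8.65%. For C3H/10T1/2 adipocytes these shares were 2.75% and 3.21%, then 2.24% and 2.37%. The 3T3-L1 numbers at 24 hrs, 987 and 1398, were 672 and 853 without RSG replicate 1 and 716 and 855 without DMSO replicate 3. The C3H/10T1/2 numbers, 488 and 571, were 296 and 358 without RSG replicate 1, and the lowered ones were 379 and 376 without DMSO replicates 1 and 3. The count of differences at 24 hrs was 25 without 3T3-L1 DMSO replicate 2, 28 without 3T3-L1 DMSO replicate 3 and 27 without C3H/10T1/2 DMSO replicate 3, and the count at 48 hrs was 100 without 3T3-L1 DMSO replicate 1.

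**Figure D1:**
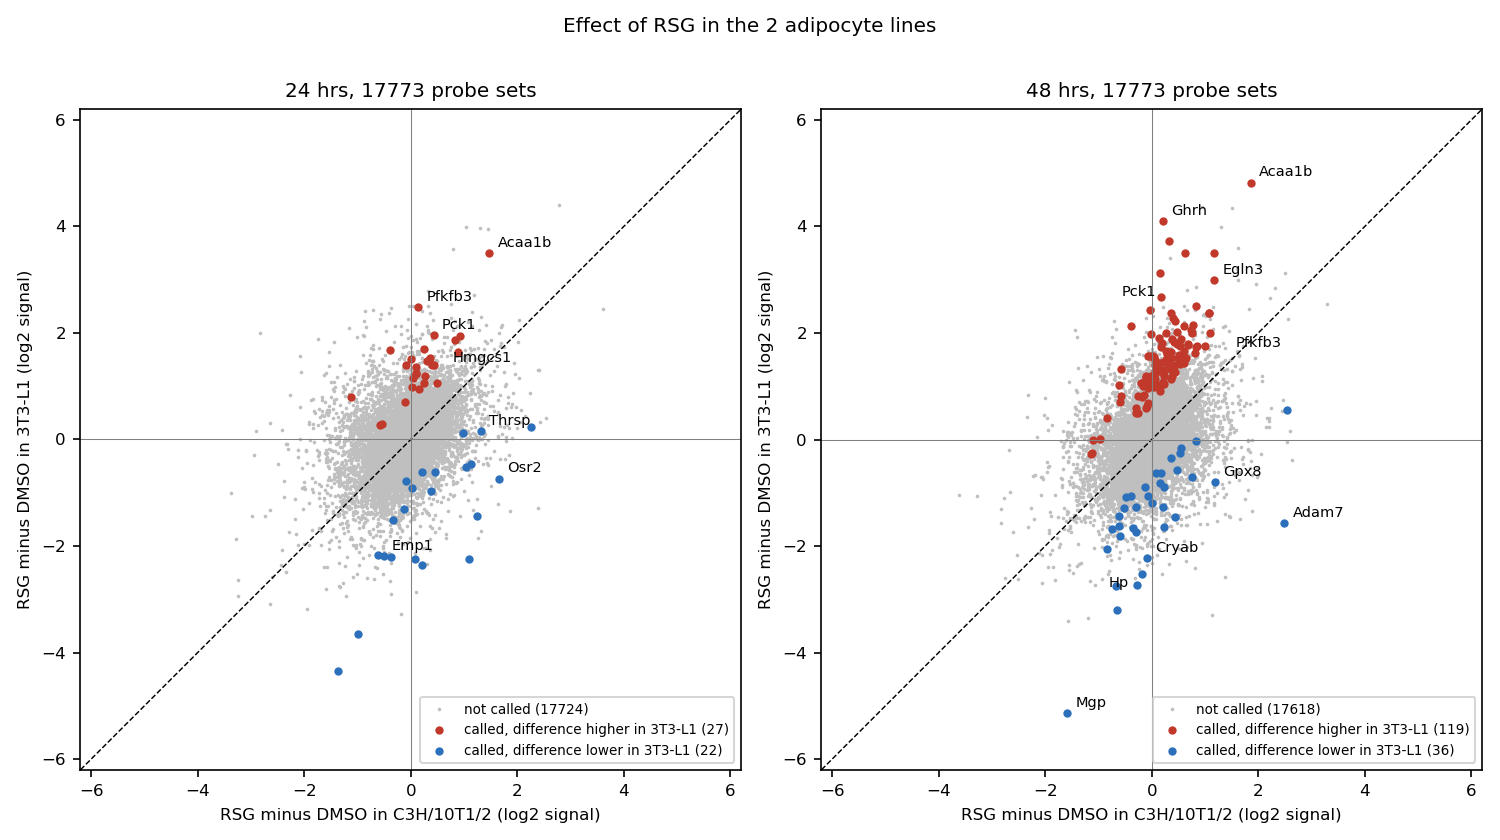
Effect of RSG (log2 signal with RSG minus DMSO) in 3T3-L1 (vertical axis) against C3H/10T1/2 adipocytes (horizontal axis) at 24 hrs (left) and 48 hrs (right). Each point is 1 of 17773 probe sets, the dashed line marks equal effects, and red and blue points are the 27 and 22 (24 hrs) and the 119 and 36 (48 hrs) whose difference was called. Most red points at 48 hrs lie near 0 on the horizontal axis and above 0 on the vertical axis.

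Where RSG moved a probe set in both lines, it moved it the same way in nearly all cases. At 24 hrs 658 probe sets were called in both lines, 657 of them in the same direction, and at 48 hrs 592, 591 of them in the same direction. The exceptions were a probe set of Ndrg1, a gene induced by stress and differentiation, at 24 hrs and Gpx8, a glutathione peroxidase of the endoplasmic reticulum, at 48 hrs. The Gpx8 signal at 48 hrs was 366, 245 and 309 with DMSO and 273, 135 and 143 with RSG in 3T3-L1 adipocytes. The C3H/10T1/2 signal was 349, 595 and 573 with DMSO and 1092, 1284 and 1009 with RSG. The RSG arrays were all above the DMSO arrays in C3H/10T1/2 adipocytes, while those of 3T3-L1 overlapped. The log2 fold changes were -0.80 (adjusted p = 0.0267) and 1.19 (adjusted p = 0.00201), and the difference was -1.99 (SE 0.37, adjusted p = 0.000986). At 24 hrs the Gpx8 difference was -1.56 (adjusted p = 0.036), and the call was lost on leaving out 1 array in 7 of 12 cases (adjusted p up to 0.16). The Ndrg1 probe set gave 71.1, 115 and 121 with DMSO and 30.9, 34.6 and 46 with RSG in 3T3-L1 adipocytes at 24 hrs. The values in C3H/10T1/2 adipocytes were 1096, 582 and 809, and 1971, 1586 and 2185. Its difference was -2.69 (SE 0.42, adjusted p = 0.000124). The more abundant Ndrg1 probe set had a difference of -1.59 (adjusted p = 0.0265), with a log2 fold change in 3T3-L1 adipocytes of -0.47 short of the threshold (adjusted p = 0.263). Its call was lost on leaving out 1 array in 7 of 12 cases (adjusted p up to 0.13). The remaining tested Ndrg1 probe sets had 3T3-L1 log2 fold changes of -0.34, -0.56 and -0.46, none called (adjusted p = 0.623, 0.272 and 0.525). Their differences were -1.83, -1.63 and -1.82 (adjusted p = 0.0937, 0.0918 and 0.175). The opposite direction thus rests on 1 probe set.

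Acaa1b, a peroxisomal thiolase that completes the shortening of fatty acids and a known PPAR target gene, differed most firmly between the lines. With DMSO its signal at 48 hrs was 37.3, 43.2 and 36.3 in 3T3-L1 adipocytes, against 1104, 1390 and 1508 in those of C3H/10T1/2. With RSG it was 1276, 1002 and 1038 in 3T3-L1 adipocytes, against 4596, 5116 and 4720 in those of C3H/10T1/2. The arrays of the treatments did not overlap in either line, and the 3T3-L1 arrays with RSG overlapped the C3H/10T1/2 arrays without it. The log2 fold changes were 4.82 and 1.86, a difference of 2.96 (SE 0.19, adjusted p = 6.54e-18). At 24 hrs the mean signal went from 42.2 ± 5.87 to 476 ± 15.7 in 3T3-L1 adipocytes, and from 1519 ± 218 to 4193 ± 149 in those of C3H/10T1/2, a difference of 2.03 (adjusted p = 4.5e-11). The call held under every alternative tried at both times. Acaa1a, a close paralog whose transcripts the probes may share, had log2 fold changes at 48 hrs of 0.35 and 0.46 and a difference of -0.10 (adjusted p = 0.97). Pex16, which is needed to build peroxisome membranes, rose in 3T3-L1 adipocytes at 24 hrs, from 463 ± 80.8 to 1332 ± 126. In C3H/10T1/2 adipocytes it went from 1054 ± 97.8 to 1358 ± 64.8, and the difference was 1.17 (adjusted p = 0.00483). It was the only gene called among the 39 tested probe sets of the peroxisome list, which does not hold Acaa1b, at either time (0.276% and 0.872% of all tested were called), and at 48 hrs its call (difference 0.95, adjusted p = 0.0177) was lost without 3T3-L1 RSG replicate 1, 3T3-L1 DMSO replicate 1, C3H/10T1/2 RSG replicate 3 or C3H/10T1/2 DMSO replicate 2 (adjusted p up to 0.12). A far less abundant Pex16 probe set had uncalled differences of -0.06 at 24 hrs and -1.06 at 48 hrs (adjusted p = 0.992 and 0.614).

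Several genes of triglyceride storage and release rose in 3T3-L1 adipocytes towards levels that C3H/10T1/2 adipocytes had with DMSO. Of 40 probe sets for 25 genes of lipid storage and adipocyte identity, 4 were higher at 24 hrs (0.152% of all tested probe sets) and 5 at 48 hrs (0.67% of all), and none was lower by limma (2 and 1 at an unadjusted p under 0.05). The median difference of the list was 0.28 and 0.26, against 0.04 and -0.02 over all tested probe sets. Pck1, the cytosolic enzyme that supplies glycerol 3-phosphate, gave 79.3, 185 and 160 with DMSO and 830, 708 and 568 with RSG in 3T3-L1 adipocytes at 48 hrs. The C3H/10T1/2 arrays gave 647, 834 and 998 with DMSO and 1108, 1094 and 959 with RSG. The treatments overlapped in C3H/10T1/2 adipocytes alone, and the difference was 2.01 (SE 0.34, adjusted p = 0.000218). At 24 hrs the Pck1 difference was 1.53 (adjusted p = 0.0191), and the call was lost without 3T3-L1 RSG replicate 2, 3T3-L1 DMSO replicate 2 or 3, or C3H/10T1/2 DMSO replicate 3 (adjusted p up to 0.09).

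Plin2, a protein of the lipid droplet surface, gave 2219, 1777 and 1905 with DMSO and 6412, 5737 and 4471 with RSG in 3T3-L1 adipocytes at 48 hrs. The C3H/10T1/2 values were 5485, 6420 and 5298 with DMSO and 5356, 6524 and 6069 with RSG. The log2 fold change was 1.48 in 3T3-L1 adipocytes, against 0.06 in those of C3H/10T1/2 (adjusted p = 2.58e-13 and 0.928), and the difference was 1.42 (SE 0.18, adjusted p = 1.63e-06). It was 1.12 at 24 hrs (adjusted p = 0.000213). Fabp5, a second fatty acid binding protein of fat cells, went from 1545 ± 154 to 3790 ± 396 in 3T3-L1 adipocytes at 48 hrs, and from 3531 ± 415 to 3700 ± 377 in those of C3H/10T1/2, a difference of 1.23 (adjusted p = 1.97e-05). Mgll, the lipase for monoglycerides, stayed far apart between the lines. At 24 hrs it gave 260, 132 and 186 with DMSO and 575, 457 and 551 with RSG in 3T3-L1 adipocytes. The values in C3H/10T1/2 adipocytes were 2936, 2653 and 3234, and 2980, 2754 and 3084. The difference was 1.5 (SE 0.23, adjusted p = 0.000124), and all 3 tested Mgll probe sets were called at both times, although at 48 hrs the most abundant one (difference 1.04, adjusted p = 0.0096) had an adjusted p of 0.054 without 3T3-L1 RSG replicate 1. No other of the 7 lipolysis genes was called. At each time 3 of their 12 tested probe sets were called (0.276% and 0.872% of all). The median difference of this list was 0.56 at 24 hrs and 0.46 at 48 hrs, against 0.04 and -0.02 over all tested probe sets. RSG raised 10 of the 12 in 3T3-L1 adipocytes at 24 hrs and 7 at 48 hrs, against 1 and 0 in those of C3H/10T1/2. Over all tested probe sets these shares were 5.55% and 6.97%, against 2.75% and 2.24%. Cav1, which forms caveolae, differed through a fall in C3H/10T1/2 adipocytes, from 1998 ± 181 to 912 ± 119 at 48 hrs. In 3T3-L1 adipocytes its means were 4239 ± 337 and 3510 ± 349, and the difference was 0.86 (adjusted p = 0.00874). Fabp5 and Cav1 were chosen after their values were seen.

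**Figure D2:**
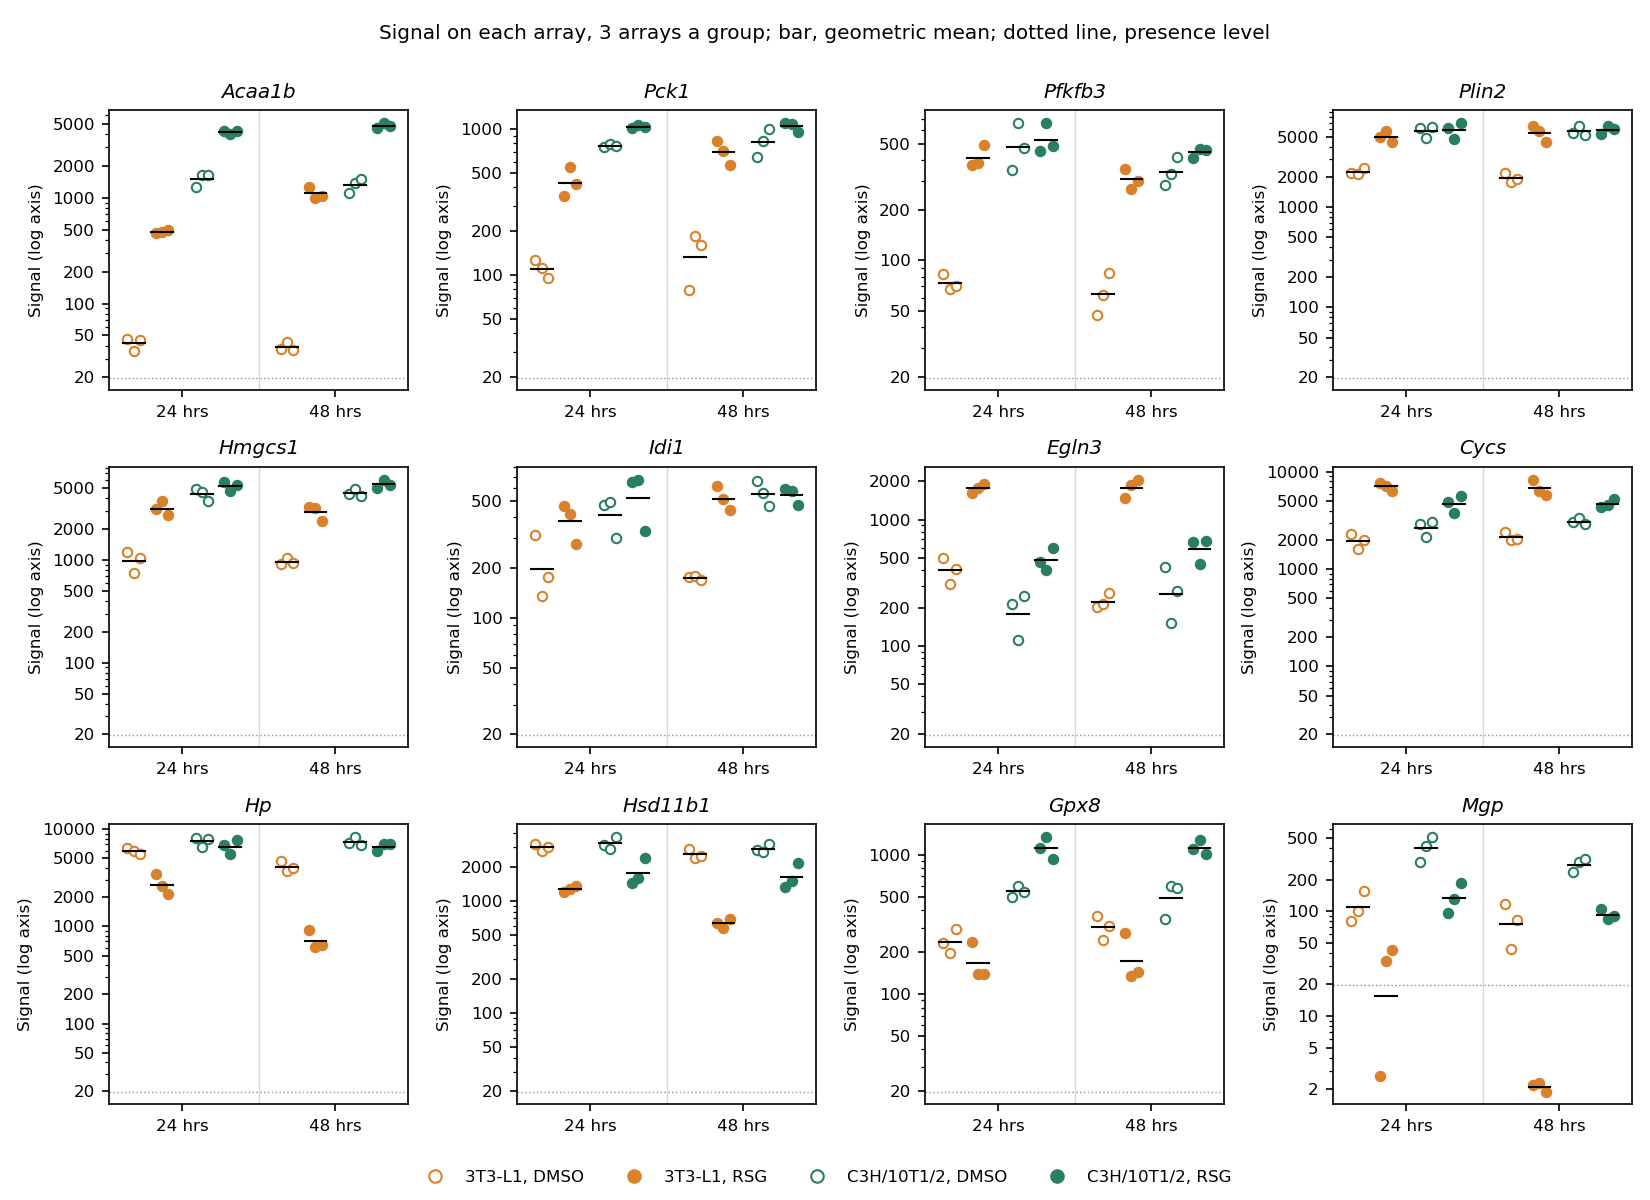
Signal of 12 genes (1 probe set each, log axis) on each of the 24 arrays, by line (orange, 3T3-L1, and green, C3H/10T1/2), treatment (open, DMSO, and filled, RSG) and time, with the geometric mean of 3 arrays as a bar and the presence level as a dotted line. For Pck1, Pfkfb3, Plin2, Hmgcs1 and Idi1 the 3T3-L1 arrays with RSG at 48 hrs lie much nearer to the C3H/10T1/2 arrays than those with DMSO, whereas Hp and Hsd11b1 are lowest in 3T3-L1 adipocytes with RSG.

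Cholesterol synthesis showed the most called genes of the lists examined. At 48 hrs 13 of 35 tested probe sets, for 10 of 18 genes, were higher in 3T3-L1 adipocytes, where 0.67% of all tested probe sets were called higher. None was lower by limma or at an unadjusted p under 0.05, and 24 reached an unadjusted p under 0.05 as higher ones. The median difference was 1.09, against -0.02 over all tested probe sets. Tested within 3T3-L1 adipocytes, RSG raised 25 of the 35 at 48 hrs (6.97% of all tested probe sets), and in C3H/10T1/2 adipocytes it raised none by limma (2.24% of all, or 256 in place of 399 probe sets without RSG replicate 1). The count of 13 was 8 without C3H/10T1/2 RSG replicate 3. At 24 hrs the 1 called probe set was Hmgcs1, which makes HMG-CoA at the entry of the pathway. It gave 1213, 750 and 1039 with DMSO and 3134, 3755 and 2733 with RSG in 3T3-L1 adipocytes at that time. C3H/10T1/2 adipocytes gave 4994, 4641 and 3791, and 5735, 4709 and 5411. The treatments were apart in 3T3-L1 adipocytes, but overlapped in those of C3H/10T1/2, with a difference of 1.45 (SE 0.25, adjusted p = 0.000786), and at 48 hrs the difference was 1.33 (adjusted p = 0.00132).

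The genes called at 48 hrs covered the pathway from its entry to the last sterols. Idi1, which isomerizes isopentenyl diphosphate, gave 175, 178 and 168 with DMSO and 614, 513 and 441 with RSG in 3T3-L1 adipocytes. The C3H/10T1/2 values were 656, 557 and 465 with DMSO and 589, 577 and 472 with RSG, so that only the 3T3-L1 arrays with DMSO stood apart. Its difference was 1.6 (SE 0.36, adjusted p = 0.0101). Fdps, which makes farnesyl diphosphate, had a difference of 1.54 (adjusted p = 0.029). For Sqle, the squalene epoxidase, the means were 563 ± 162 and 1430 ± 177 in 3T3-L1 adipocytes, against 1171 ± 92.5 and 1283 ± 164 in those of C3H/10T1/2, a difference of 1.26 (adjusted p = 0.00668). Lss, which closes the sterol ring, went from 127 ± 12 to 518 ± 75.4 in 3T3-L1 adipocytes, and from 530 ± 116 to 730 ± 85.9 in those of C3H/10T1/2, a difference of 1.54 (adjusted p = 0.000986). Cyp51, the lanosterol demethylase, had a difference of 1.62 (SE 0.36, adjusted p = 0.00878), which was lost without 3T3-L1 DMSO replicate 1 or C3H/10T1/2 RSG replicate 3 (adjusted p up to 0.1). Its 3T3-L1 signals were 68.2, 154 and 136 with DMSO and 445, 358 and 383 with RSG, and its C3H/10T1/2 signals 318, 276 and 227, and 369, 344 and 233. Less abundant Cyp51 probe sets had uncalled differences of 1.12 and 2.94 (adjusted p = 0.215 and 0.172). Hsd17b7, Nsdhl and Sc5d, later enzymes of the pathway, had differences of 1.15, 0.94 and 1.24 (adjusted p = 0.003, 0.032 and 0.015). The tenth gene was Stard4, a sterol carrier, with a difference of 1.64 on 1 probe set and 0.26 on its more abundant one (adjusted p = 0.82). Srebf2, which encodes SREBP2, had log2 fold changes of -0.07 and -0.27, and its difference did not pass the test (0.20, adjusted p = 0.91). Apart from Idi1, Cyp51 and Hmgcs1, these genes were chosen after their values were seen.

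Because the called genes of cholesterol synthesis moved together, the promoter windows of 3 of them are shown, from RefSeq on GRCm38.p6, 250 bases before to 50 after the gene start. Windows were found for 7 of the 10 called genes. Capitals mark CCAAT on either strand (ATTGG on the other) and, in Hmgcs1, the sterol regulatory element letters TCACNCCAC, which overlap none of the CCAAT matches. Hmgcs1 is at chr13:119690101-119690400 on the + strand, Idi1 at chr13:8885356-8885655 on the + strand and Cyp51 at chr5:4104648-4104947 on the - strand.
Hmgcs1: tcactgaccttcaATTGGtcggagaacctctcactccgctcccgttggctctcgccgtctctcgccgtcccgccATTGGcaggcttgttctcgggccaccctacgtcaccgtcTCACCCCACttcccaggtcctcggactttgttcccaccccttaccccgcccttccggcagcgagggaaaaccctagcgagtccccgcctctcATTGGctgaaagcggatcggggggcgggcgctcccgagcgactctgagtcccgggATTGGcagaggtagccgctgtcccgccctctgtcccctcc
Idi1: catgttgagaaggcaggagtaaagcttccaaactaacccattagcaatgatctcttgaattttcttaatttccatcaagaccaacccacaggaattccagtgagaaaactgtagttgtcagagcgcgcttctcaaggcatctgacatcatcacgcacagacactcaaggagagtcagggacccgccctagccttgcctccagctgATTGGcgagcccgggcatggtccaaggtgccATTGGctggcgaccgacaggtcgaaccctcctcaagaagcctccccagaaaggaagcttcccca
Cyp51: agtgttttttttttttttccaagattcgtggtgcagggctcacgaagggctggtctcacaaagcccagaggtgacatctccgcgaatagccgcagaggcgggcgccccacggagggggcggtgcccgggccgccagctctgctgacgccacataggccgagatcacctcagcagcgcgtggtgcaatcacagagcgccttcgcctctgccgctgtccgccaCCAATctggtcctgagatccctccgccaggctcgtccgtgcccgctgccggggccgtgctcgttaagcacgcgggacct
CCAAT was in all 7 windows of the called genes and in 14 of 17 windows (82.4%) of the tested cholesterol genes, against 37.4% of 32851 windows of all genes. TCACNCCAC was in 1 of the 7 windows, that of Hmgcs1, and in 1.24% of all windows. These motifs were chosen after the results were known, and a match in letters is not a bound site.

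In fatty acid synthesis the calls fell on Scd2 and Acss2. At 48 hrs 5 of 28 tested probe sets were higher (0.67% of all tested), none was lower by limma (2 at an unadjusted p under 0.05), and the median difference was 0.69. Acss2, which makes acetyl-CoA from acetate, gave 176, 256 and 192 with DMSO and 795, 702 and 588 with RSG in 3T3-L1 adipocytes. C3H/10T1/2 adipocytes gave 411, 339 and 304, and 559, 540 and 423, a difference of 1.22 (SE 0.25, adjusted p = 0.00321). The treatments were apart in both lines, but the C3H/10T1/2 fold change at 48 hrs did not pass the test (0.53, adjusted p = 0.0693). Acss2 had risen in both lines at 24 hrs. The log2 fold change was then 1.11 for C3H/10T1/2 (adjusted p = 1.28e-05), against 0.86 for 3T3-L1 (adjusted p = 0.000283). That difference, -0.25, was not called (adjusted p = 0.842). A less abundant Acss2 probe set gave 1.15 and 1.12 at 24 hrs, with an uncalled difference of -0.03 (adjusted p = 0.991). Scd2, a stearoyl-CoA desaturase, had differences of 0.76, 1.30 and 1.99 on its 3 probe sets, and the call of the most abundant one (adjusted p = 0.0394) was lost on leaving out 1 array in 9 of 12 cases (adjusted p up to 0.17). Fasn, the fatty acid synthase, had means of 663 ± 37.5 and 1109 ± 327 in 3T3-L1 adipocytes, against 1838 ± 208 and 1806 ± 307 in those of C3H/10T1/2 at 48 hrs. Its difference was 0.73 with an interval of 0.11 to 1.36 (95%), short of the threshold after adjustment (adjusted p = 0.405). Thrsp, a lipogenic protein, was lower at 24 hrs. Its signal was 1189, 731 and 988 with DMSO and 1213, 959 and 1020 with RSG in 3T3-L1 adipocytes. In C3H/10T1/2 adipocytes it was far less abundant, 31.9, 20.6 and 21.2 with DMSO and 65.4, 61.8 and 53.3 with RSG, and it rose there. The difference was -1.16 (adjusted p = 0.0197), and the call was lost on leaving out 1 array in 6 of 12 cases (adjusted p up to 0.09).

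Glucose uptake and glycolysis came next. At 48 hrs 12 of 35 tested probe sets, for 7 of 18 genes, were higher in 3T3-L1 adipocytes (0.67% of all tested probe sets) and none was lower by limma (1 at an unadjusted p under 0.05), with a median difference of 0.88. RSG raised 26 of the 35 probe sets in 3T3-L1 adipocytes, against 8 in those of C3H/10T1/2 (6.97% and 2.24% of all tested probe sets). Pfkfb3, which makes the fructose 2,6-bisphosphate that speeds glycolysis, gave 83.5, 67.2 and 70.2 with DMSO and 372, 382 and 493 with RSG in 3T3-L1 adipocytes at 24 hrs. C3H/10T1/2 adipocytes gave 347, 664 and 472 with DMSO and 452, 667 and 482 with RSG. The 3T3-L1 arrays with DMSO lay apart from the other 9, which overlapped, and the difference was 2.35 (SE 0.37, adjusted p = 0.000124). At 48 hrs it was 1.89 (adjusted p = 0.00174). A less abundant Pfkfb3 probe set had uncalled differences of 1.11 at 24 hrs and 0.90 at 48 hrs (adjusted p = 0.222 and 0.331). Pfkl, a subunit of phosphofructokinase, rose in both lines at 48 hrs, from 716 ± 196 to 2419 ± 126 in 3T3-L1 adipocytes, and from 3014 ± 303 to 4313 ± 322 in those of C3H/10T1/2, with a difference of 1.28 (SE 0.21, adjusted p = 0.000112). Tpi1, the triose phosphate isomerase, gave 1501, 1523 and 1900 with DMSO and 4189, 4644 and 4250 with RSG in 3T3-L1 adipocytes. It gave 2822, 2460 and 2792, and 3280, 3569 and 3101 in C3H/10T1/2 adipocytes, so that 3T3-L1 adipocytes were below C3H/10T1/2 adipocytes with DMSO and above them with RSG. Its difference was 1.12 on this probe set (adjusted p = 0.000103) and 0.94 on another (adjusted p = 0.00239). Ldha and Pgam1, lactate dehydrogenase and phosphoglycerate mutase, had differences of 0.97 and 0.88 (adjusted p = 0.0087 and 0.0088). For Aldoa (aldolase) and Pgk1 (phosphoglycerate kinase) other probe sets were called, but the most abundant one was not (0.89 in both, adjusted p = 0.089 and 0.1). Slc2a1, the glucose transporter GLUT1, had a difference of 1.14 with an interval of 0.28 to 2.00, short of the threshold (adjusted p = 0.283). Tpi1, Ldha, Pgam1, Aldoa and Pgk1 were chosen after their values were seen.

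**Figure D3:**
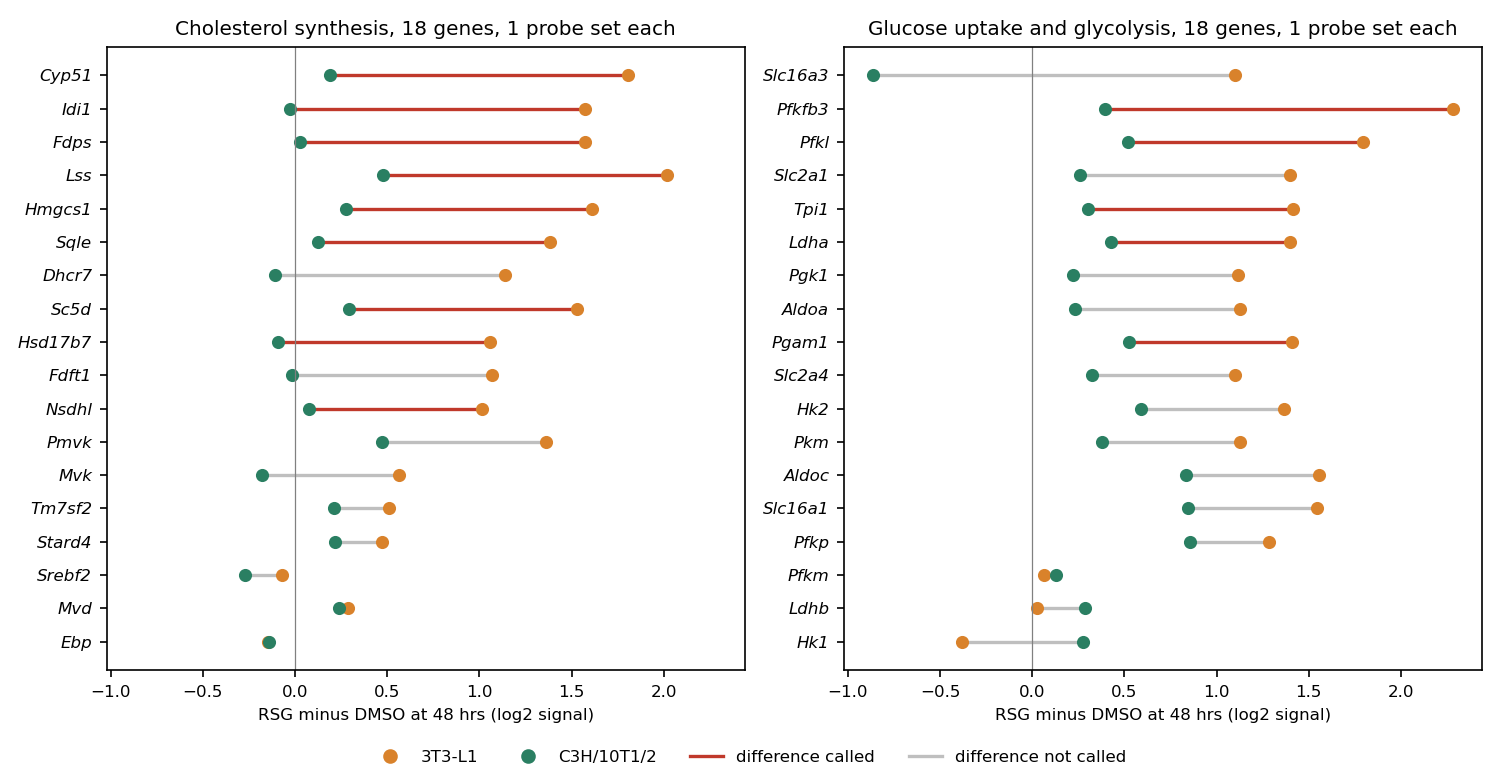
Log2 fold change with RSG at 48 hrs in 3T3-L1 (orange) and C3H/10T1/2 adipocytes (green) for the 18 tested genes of cholesterol synthesis (left) and the 18 of glucose uptake and glycolysis (right), 1 probe set a gene, joined by a red line where the difference was called and by a grey line where it was not. The orange point lies to the right for most genes, as in Cyp51 (difference 1.62) and Pfkfb3 (1.89), and Srebf2 and Hk1 are among those with little or opposite shift.

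A window was found for each of the 7 called glycolysis genes, 11 in all as some have several gene starts, and 2 are shown in which capitals mark ACGTG on either strand (CACGT on the other), letters found in binding sites of hypoxia-inducible and E-box factors. In the Pfkfb3 window both strands match in the same letters, CACGTG. Pgk1 is at chrX:106186850-106187149 on the + strand and Pfkfb3 at chr2:11502041-11502340 on the - strand.
Pgk1: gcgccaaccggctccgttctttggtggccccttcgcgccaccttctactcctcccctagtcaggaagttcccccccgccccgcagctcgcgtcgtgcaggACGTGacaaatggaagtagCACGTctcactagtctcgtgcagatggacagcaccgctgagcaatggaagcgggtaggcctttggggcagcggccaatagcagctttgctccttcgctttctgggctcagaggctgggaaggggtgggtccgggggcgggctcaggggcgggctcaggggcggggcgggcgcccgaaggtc
Pfkfb3: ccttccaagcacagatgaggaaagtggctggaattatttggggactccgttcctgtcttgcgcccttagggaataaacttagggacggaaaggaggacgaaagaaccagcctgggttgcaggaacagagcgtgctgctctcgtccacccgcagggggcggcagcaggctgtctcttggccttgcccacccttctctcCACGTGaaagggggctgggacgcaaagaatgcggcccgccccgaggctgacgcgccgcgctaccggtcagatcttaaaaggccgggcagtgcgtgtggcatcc
ACGTG was in 7 of these 11 windows, in 16 of 27 windows (59.3%) of the tested glycolysis genes and in 34 of 94 windows (36.2%) of the genes called higher at 48 hrs. Among the 7 are overlapping Aldoa windows that hold the same match, and both Pfkfb3 windows, so that windows are not independent. Of all windows 19.6% held it, and of those of tested genes 24.4%. An exact direct repeat for PPAR, AGGTCA on either side of a single free base, was in none of the 94 windows and in 0.0396% of all windows, which says only that these letters are not in these 300 bases. The motifs were chosen after the results were known.

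Egln3, a prolyl hydroxylase that marks hypoxia-inducible factors for breakdown, rose in both lines. Its signal at 48 hrs was 204, 214 and 260 with DMSO and 1471, 1875 and 2063 with RSG in 3T3-L1 adipocytes. In C3H/10T1/2 adipocytes it was 423, 151 and 272, and 659, 441 and 674. The log2 fold changes were 2.99 and 1.17, a difference of 1.82 (SE 0.39, adjusted p = 0.00593, and 0.06 without C3H/10T1/2 DMSO replicate 1).

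For the mitochondrial energy genes, calls of a difference were a small part of the list, though a larger share than over all tested probe sets. Of 239 tested probe sets for 132 genes of fatty acid oxidation, the TCA cycle, oxidative phosphorylation and related carriers, 3 (for 2 genes) were higher at 24 hrs and 6 (for 5 genes) at 48 hrs, where 0.152% and 0.67% of all tested probe sets were, and none was lower by limma (5 and 4 at an unadjusted p under 0.05). The median difference was 0.09 at 24 hrs and 0.13 at 48 hrs. RSG raised 125 of them in 3T3-L1 adipocytes, against 83 in those of C3H/10T1/2 at 48 hrs, beside 6.97% and 2.24% of all tested probe sets, with median log2 fold changes of 0.48 and 0.38. Cycs, cytochrome c, rose in both lines. Its signal at 48 hrs was 2403, 2019 and 2031 with DMSO and 8318, 6410 and 5830 with RSG in 3T3-L1 adipocytes. In C3H/10T1/2 adipocytes it was 3053, 3335 and 2896, and 4404, 4552 and 5271. The difference was 1.05 (SE 0.22, adjusted p = 0.0041) at 48 hrs and 1.05 at 24 hrs (adjusted p = 0.00894), where it was lost without 3T3-L1 DMSO replicate 2, C3H/10T1/2 RSG replicate 2 or C3H/10T1/2 DMSO replicate 3 (adjusted p up to 0.068). Another Cycs probe set was also called at both times (1.01 and 0.89). A further abundant one had uncalled differences of 0.37 at 24 hrs and 0.40 at 48 hrs (adjusted p = 0.808 and 0.766), and its C3H/10T1/2 rise was not called. Hadhb, a subunit of the trifunctional protein of fatty acid oxidation, rose at 48 hrs from 1370 ± 162 to 5491 ± 545 in 3T3-L1 adipocytes, and from 2006 ± 184 to 4274 ± 198 in those of C3H/10T1/2. Its difference was 0.91 (SE 0.16, adjusted p = 0.0003), and 0.64 on a less abundant Hadhb probe set (adjusted p = 0.419). Its partner Hadha had a difference of 0.75 (adjusted p = 0.0182), and the call was lost on leaving out 1 array in 6 of 12 cases (adjusted p up to 0.18). Cox8b, a cytochrome c oxidase subunit abundant in brown fat, gave 286, 97.1 and 157, and 962, 587 and 641 in 3T3-L1 adipocytes at 48 hrs. In C3H/10T1/2 adipocytes it was higher on every array, 1742, 1975 and 1779, and 2609, 3569 and 2305. Its difference was 1.52 (SE 0.32, adjusted p = 0.00593), with an adjusted p of 0.053 without 3T3-L1 DMSO replicate 2. Pcx, pyruvate carboxylase, had a difference of 0.90 (adjusted p = 0.00647, and 0.058 without 3T3-L1 DMSO replicate 1).

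For the regulators and target genes discussed in the study, no difference of those given here passed the test. Ppargc1b (PGC-1β) had differences of -0.01 at 24 hrs and 0.08 at 48 hrs, with intervals of -0.63 to 0.61 and -0.54 to 0.70, and Esrra, a receptor that it coactivates, had 0.25 and 0.17, with intervals of -0.10 to 0.61 and -0.19 to 0.52. Both genes rose in each line at both times. Ppargc1a (PGC-1α), Nrip1 and Pdk4 had differences of 0.14, 0.05 and -0.18 at 24 hrs, which were 0.20, 0.11 and 0.45 on the 48-hr arrays. The intervals of these 5 genes leave room for differences of up to 0.94 on the log2 scale. Ppara was under the presence level with DMSO in both lines, so that its log2 fold changes at 48 hrs are bounds, at least 1.34-fold higher with RSG in 3T3-L1 adipocytes, and at least 2.50-fold in those of C3H/10T1/2, taking the presence level for an array below it. Cidea, a lipid droplet protein abundant in brown fat, rose in both lines at 48 hrs (difference 0.97, adjusted p = 0.687), and Ehhadh was under the presence level on all late arrays of 3T3-L1 adipocytes. None of 120 probe sets of mitochondrial ribosomal proteins was called at either time by limma (1 higher and 10 lower at an unadjusted p under 0.05 at 48 hrs), which is near the share called over all features, 0.276% and 0.872%.

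A smaller set of genes fell more in 3T3-L1 adipocytes. Hp (haptoglobin), an acute phase protein that fat cells secrete, gave 4701, 3716 and 3940 with DMSO and 912, 615 and 643 with RSG in 3T3-L1 adipocytes at 48 hrs. The C3H/10T1/2 arrays gave 7217, 8348 and 6853, and 5912, 6958 and 6954. The treatments were far apart in 3T3-L1 adipocytes, but overlapped in those of C3H/10T1/2, and the difference was -2.35 (SE 0.45, adjusted p = 0.00129), a call that held under every alternative tried. At 24 hrs the Hp difference was -0.97 and was not called (adjusted p = 0.522). Hsd11b1, which turns inactive glucocorticoid into its active form, fell in both lines. Its means at 48 hrs were 2601 ± 264 and 629 ± 54.2 in 3T3-L1 adipocytes, against 2909 ± 261 and 1662 ± 440 in those of C3H/10T1/2, a difference of -1.21 (SE 0.21, adjusted p = 0.000447). The Hsd11b1 difference at 24 hrs, -0.36, was not called (adjusted p = 0.685). Pnp, the purine nucleoside phosphorylase, gave 701, 525 and 543 with DMSO and 189, 158 and 213 with RSG in 3T3-L1 adipocytes at 48 hrs. C3H/10T1/2 adipocytes gave 1402, 2013 and 1661, and 1038, 1423 and 1540, which overlap. Its difference was -1.31 (adjusted p = 0.000492), and -1.17 at 24 hrs (adjusted p = 0.00545). Mgp, the matrix Gla protein that restrains mineralization, was under the presence level on all 3T3-L1 arrays with RSG at 48 hrs (2.2, 2.3 and 1.9, against 116, 43.4 and 82.5 with DMSO), a fall of at least 3.74-fold. In C3H/10T1/2 adipocytes it fell from 233, 292 and 311 to 104, 84 and 88.8, and the fitted difference was -3.54 (adjusted p = 0.000377). Because its 3T3-L1 fold is a bound, the call was lost with values floored at the presence level. Mgp was 1 of 87 tested probe sets of collagens and matrix, of which no other was called at 48 hrs, a share near the 0.872% over all features. RSG lowered 23 of the 87 in 3T3-L1 adipocytes, against 18 in those of C3H/10T1/2 (8.65% and 2.37% of all tested probe sets). The median difference of that list was -0.04.

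Other genes that fell more in 3T3-L1 adipocytes included Emp1, an epithelial membrane protein. At 24 hrs it went from 478 ± 92.2 to 105 ± 19.8 in 3T3-L1 adipocytes, and from 99.4 ± 34.7 to 67.9 ± 11.3 in those of C3H/10T1/2. Its difference was -1.68 (adjusted p = 0.0162), and the call was lost on leaving out 1 array in 6 of 12 cases (adjusted p up to 0.098). The tetraspanin Tspan4 fell from 1241 ± 134 to 357 ± 85.0 in 3T3-L1 adipocytes at 48 hrs, and from 488 ± 69.2 to 319 ± 4.06 in those of C3H/10T1/2, a difference of -1.21 (adjusted p = 0.00681). The Tspan4 difference at 24 hrs, -0.15, was not called (adjusted p = 0.929). Sirt2, a deacetylase, fell in 3T3-L1 adipocytes alone at 48 hrs, with signals of 428, 384 and 460 with DMSO and 245, 164 and 294 with RSG. Its C3H/10T1/2 signals were 265, 291 and 324, and 322, 336 and 366, and the difference was -1.11 (adjusted p = 0.00211).

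A few called genes were measured in 1 line only. Ghrh, the growth hormone releasing hormone, was under the presence level on all C3H/10T1/2 arrays at 48 hrs. In 3T3-L1 adipocytes it gave 10.2, 10 and 22.5 with DMSO and 113, 294 and 347 with RSG. Because the C3H/10T1/2 signals and most of the 3T3-L1 signals with DMSO were under that level, no size of the difference is given, and its call was lost on leaving out 1 array in 8 of 12 cases. Cryab, a small heat shock protein, was likewise under the presence level on all C3H/10T1/2 arrays at 48 hrs, and in 3T3-L1 adipocytes it fell by 2.23 on the log2 scale (adjusted p = 1.36e-06). For the same reason no difference is given. The other tested Cryab probe sets had 3T3-L1 log2 fold changes of -1.66 and 0.33 and no called difference.

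The levels without RSG also differed between the lines for the genes called higher. The 6 DMSO arrays at 1 hr enter neither contrast, and on them 103 of the 119 probe sets called higher at 48 hrs had a lower mean in 3T3-L1 than in C3H/10T1/2 adipocytes, with a median log2 gap of -1.20. Over all tested probe sets 33.0% were lower in 3T3-L1 adipocytes and the median gap was 0.34, and over all 1239 raised by RSG in 3T3-L1 adipocytes at 48 hrs 72.2% were lower. On the 48-hr arrays, which made the calls, the median gap was -1.20 with DMSO and 0.01 with RSG. The 24-hr arrays, which did not, gave -0.76 with DMSO and -0.08 with RSG. The whole list of cholesterol synthesis had a median gap of -1.88 with DMSO at 1 hr, where 33 of 35 probe sets were lower in 3T3-L1 adipocytes. At 48 hrs its gap was -1.21 with DMSO and -0.12 with RSG. For glucose uptake and glycolysis the gaps were -0.46, -0.82 and 0.06. Of the 36 probe sets called lower at 48 hrs, 9 were lower in 3T3-L1 adipocytes at 1 hr with DMSO, and the median gap was 0.46. The part of these starting levels in the differences was not tested.

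**Figure D4:**
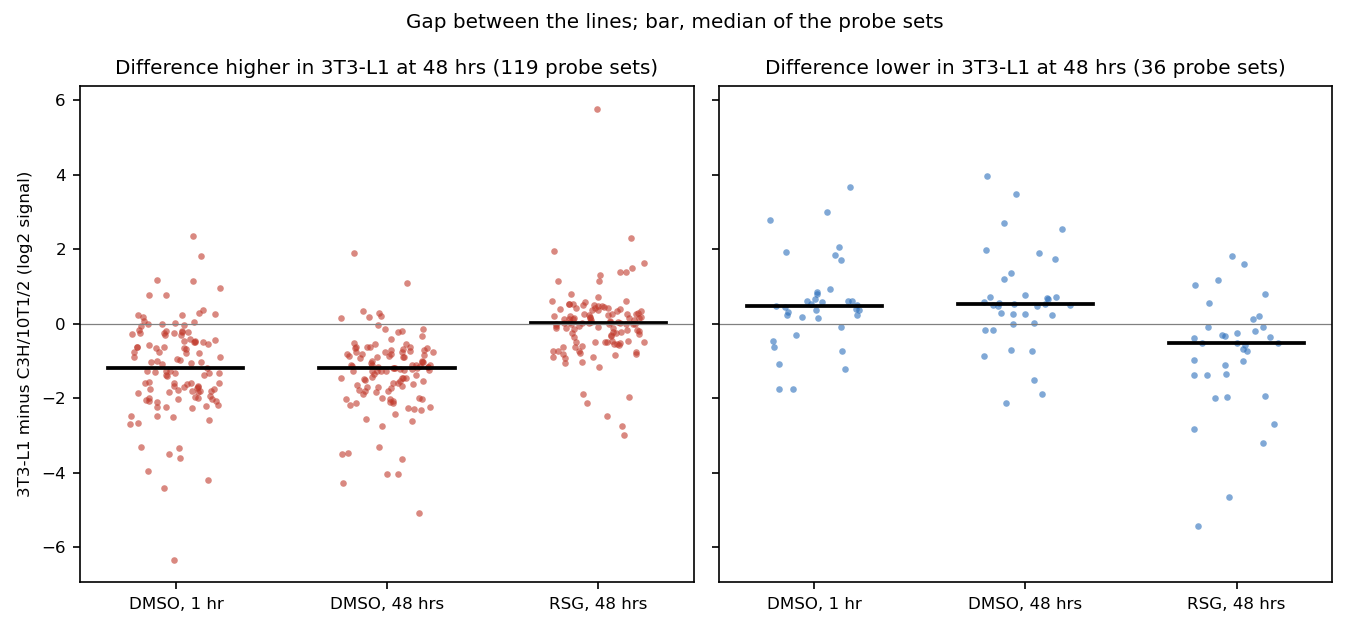
Log2 signal in 3T3-L1 minus C3H/10T1/2 adipocytes for the 119 probe sets whose difference was called higher (left) and the 36 called lower (right) at 48 hrs, with DMSO at 1 hr, DMSO at 48 hrs and RSG at 48 hrs. Each point is a probe set and each bar a median, which for the higher ones lies at -1.20 with DMSO at both times and at 0.01 with RSG.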

How the data were processed

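RNA of mouse adipocytes had been hybridised to Affymetrix mouse expression arrays, and the authors deposited MAS 5.0 signals, which are intensities on a linear scale, globally scaled and not below 0. Signals under 0.1 (132 values) were set to 0.1 and log2 was taken, with no further normalization. Of 22626 probe sets that are no controls, 20380 had 1 gene in the platform annotation, 691 several and 1555 none. Some genes are not analysed here. One mean per line, treatment and time was fitted to all 71 arrays with limma 3.58.1 (trend) in R 4.3.3, which gives 54.8 degrees of freedom, and p-values were adjusted by Benjamini-Hochberg over the 17773 tested probe sets, with calls at 0.05. Intervals are unadjusted 95% intervals from that fit. Figures were drawn with matplotlib 3.10.9 in Python 3.11.15.

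Genes were named by a rule, 1 probe set a gene, that of the highest mean signal. It took at each time up to 8 genes each way with the largest called difference, all groups at the presence level and treatments apart in at least 1 line, up to 6 called in opposite directions, up to 4 each way measured in 1 line, up to 2 each way in each gene list, and the genes that the study discusses. Members and lists were chosen with earlier results of these data known. Gene lists were drawn up by function and have no set test. With 3 arrays a group the number of arrays limits the precision, and the median standard error of a difference was 0.34. The fit was tested on simulated data, where it recovered 28% of differences of 1 and 72% of differences of 2 at 48 hrs (38% and 84% at 24 hrs) on the log2 scale. It made 2 false calls at 48 hrs and 6 at 24 hrs. The simulated noise was normal and independent between arrays, with 1 spread per probe set for all groups and no shared batches. These shares therefore need not hold for the real arrays. Alternatives were a floor at the presence level, other filters, quantile normalization, fewer arrays in the fit, array weights, no trend, a replicate block, the methods' test on log10 signals with a fold of 1.2, and leaving out each array.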

Additional observations from a re-analysis of the deposited data

Results flagged for a closer look

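The count of probe sets whose RSG effect differed between 3T3-L1 and C3H/10T1/2 adipocytes by the test of that difference was 49 at 24 hrs and 155 at 48 hrs (limma). The probe sets called in both lines with opposite signs were 1 of Ndrg1 at 24 hrs, with a difference of -2.69, and that of Gpx8 at 48 hrs, with a difference of -1.99. Groups held 3 arrays, so that no search for a single array apart from its group was made.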

How the results depend on the processing

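The count of 49 at 24 hrs was 96 with signals floored at the presence level, 78 after quantile normalization, 19 with the 24 late arrays alone and 13 with the 12 arrays of that time, and 25 to 72 on leaving out 1 array. The count of 155 at 48 hrs was 63 and 57 with those fewer arrays, fits with fewer residual degrees of freedom, and 100 to 193 on leaving out 1 array. The methods' test gave 1478 and 1190 unadjusted and 2 and 4 after Benjamini-Hochberg. For the lists at 48 hrs, the 24 late arrays gave 7 for cholesterol synthesis, 6 for glycolysis, 1 for energy genes and 0 for collagens, and the 12 arrays gave 6 for glycolysis and 0 for energy genes. The methods' test gave 22 for cholesterol synthesis, 19 for energy genes and 8 for collagens unadjusted, and 0 for all 4 lists after adjustment. Leaving out 1 array gave 8 to 13 for cholesterol synthesis, 8 to 13 for glycolysis, 4 to 7 for energy genes and 1 to 2 for collagens, which were 2 with the floor. The change from 24 to 48 hrs had 0 to 1 calls on leaving out 1 array, the 1 coming without 3T3-L1 RSG replicate 1 at 24 hrs and without 3T3-L1 DMSO replicate 1 at 48 hrs.

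Same-numbered arrays deviated together in all 6 comparisons of each line, with correlations of 0.0764 to 0.184 for 3T3-L1 and 0.0681 to 0.17 for C3H/10T1/2, and each correlated best with its own number. This is a hint from the data that the numbers mark shared batches. Since 1 of 6 in each line was not over 0.1, and no source says that a number marks the same batch, the numbers were not taken as pairs. With the replicate block in both lines 53 and 200 probe sets were called, and with the block in C3H/10T1/2 alone 18 at 24 hrs and 115 at 48 hrs, 3 of the energy genes and 0 of the collagens. The latter block took the adjusted p to between 0.0519 and 0.118 for Plin2, Pck1, Cycs, Gpx8, Thrsp and the more abundant Ndrg1 probe set at 24 hrs, Pex16 at both times, and Mgll, Mgp, Scd2, Hadha, Cox8b, Sirt2 and Tspan4 at 48 hrs. Of these, Hadha alone was also lost with the block in both lines (adjusted p = 0.0818).

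With the 24 late arrays alone, 33 of 53 called gene results lost the call. Among them were Cycs and Pex16 at both times, and Pck1, Hadhb, Gpx8, Thrsp and the more abundant Ndrg1 probe set at 24 hrs. At 48 hrs they included Acss2, Idi1, Cyp51, Egln3, Scd2, Hadha, Cox8b, Pcx, Mgll, Mgp, Sirt2 and Tspan4. Of the 53 results, 24 were called on leaving out any array, 3 under every alternative, and none changed sign. Uncalled differences near 0 did. Ehhadh at 24 hrs was -1.43 with the floor, -0.13 after quantile normalization, -0.28 after quantile normalization within each line and -0.84 to 0.67 on leaving out 1 array. After quantile normalization Pdk4 was 0.13, Ppargc1b 0.12 and Slc2a1 0.088 at 24 hrs, and Slc2a1 was 0.037 within lines. Leaving out 1 array gave at 24 hrs -0.069 to 0.66 for Cidea, -0.17 to 0.36 for Nrip1, -0.19 to 0.14 for Ppargc1b and -0.31 to 0.32 for Slc2a1, and at 48 hrs -0.054 to 0.29 for Nrip1, -0.10 to 0.53 for Ppargc1a and -0.024 to 0.27 for Ppargc1b. Genes named outside the rule were not refitted this way. The causes were not tested.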
